A study of Mus musculus with 14 samples.

Results

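The 10 transcripts described here encode interleukin 10, the inflammatory cytokines that it restrains and the natural antagonist of interleukin 1. They were Il10, Il1a, Il1b, Il1rn, Il6, Tnf, Il12b, Il23a, Il18 and Osm, taken by symbol from 55487 genes, and each matched 1 gene. RNA was measured in cells sorted from mouse colon. All animals were Tsc2fl/fl, that is, both copies of Tsc2 were floxed. Controls were Lyz2+/+ (wt), and the others were Lyz2cre/+ (cre), with Cre recombinase expressed from Lyz2, a gene of macrophages, monocytes and neutrophils. Macrophages of the lamina propria (LP) gave 3 wt libraries, from 1 male and 2 females, and 3 cre libraries, all from males. CD44+ EpCAM+ epithelial cells (EC) gave 4 wt libraries, from 2 males and 2 females, and 4 cre libraries, from 3 males and 1 female. No group had Cre without floxed Tsc2, so the recombinase allele and the deletion cannot be told apart. No age is given in the labels used here.

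Interleukin 10 signals through a receptor of 2 chains and STAT3 and limits the output of cytokines such as interleukin 1, interleukin 6, TNF and interleukin 12 by myeloid cells. Resident macrophages of the colon are known as a source of it, and mice that lack it, or whose macrophages cannot sense it, develop colitis. Tsc2 encodes tuberin, which restrains mTORC1, a kinase complex that couples nutrients to growth. Interleukin 1 alpha and beta act on a shared receptor that Il1rn, the receptor antagonist, occupies without signalling, and interleukin 1 beta and interleukin 18 are released after cleavage by inflammasome caspases.

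Each library held between 7269103 and 9364551 counts. Values per library are CPM, the usual scaling of counts to a common library size, with library sizes corrected by TMM within each cell type. The sorted populations differed in marker genes. Csf1r, a macrophage growth factor receptor, stood between 1270 and 1978 CPM in the 6 macrophage libraries. In the 8 epithelial ones it stood between 2.73 and 16.9 CPM. Epcam, an epithelial adhesion molecule, stood between 3.12 and 13.6 CPM in macrophage libraries and between 384 and 675 CPM in epithelial ones. The macrophage libraries also held transcripts typical of other cells. Means were 1626 CPM in wt and 638 CPM in cre for the collagen gene Col3a1, and 2511 and 2631 CPM for the antibody gene Igha. Tsc2 stood at 37.0, 34.1 and 22.9 CPM in wt macrophages (libraries 2, 4 and 6) and at 24.1, 29.0 and 31.9 CPM in cre macrophages (libraries 10, 8 and 9). These values overlap, and counts over the whole gene include exons outside a floxed segment, so they are a weak check of the deletion. In cre against wt macrophages 133 of 14087 genes passed edgeR's quasi-likelihood test at a Benjamini-Hochberg adjusted p under 0.05, which is 0.944% of those tested (0.731% higher and 0.213% lower). Leaving out cre library 10, 8 or 9 gave 29, 44 or 87 calls, leaving out wt library 2, 4 or 6 gave 41, 35 or 62, and fitting sex gave 2.

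Most of these transcripts were found mainly in the macrophage libraries. The cell type difference, fitted over all 14 libraries, was called at an adjusted p under 0.05 and at least 2-fold in 9 of 10 members, all higher in macrophages. Across all 16375 genes 52.2% were called, 29.7% higher and 22.5% lower in macrophages. Il18, whose product acts on lymphocytes and is made by many epithelia, was the exception, with a log2 difference of 0.18 (SE 0.14, adjusted p = 0.276 by edgeR). Il1rn had the next smallest fitted difference among the members with more than 3 counts in an epithelial library, 3.93 on the log2 scale (SE 0.18), and Tnf followed at 5.16 (SE 0.36). Osm, which encodes the interleukin 6 family ligand oncostatin M, differed by 9.33 (SE 0.25), Il1b by 8.74 (SE 0.32) and Il10 by 8.45 (SE 0.24). Il6, a ligand of the acute phase response, had 46 to 80 counts per macrophage library and 1 count in 8 epithelial libraries. In the 4 wt epithelial libraries Il6 had no count, which allows up to 3 counts in each.

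The upstream sequence is shown for 3 members as examples. Il6 and Tnf were found mainly in macrophage libraries, and Il18 in both populations. RefSeq (build GRCm38.p6) gave 9 promoter entries for 7 of the 10 members, and Il10, Il23a and Osm had none. The 250 bases before the start site are shown for Il6 (chr5:30012864-30013113, plus strand), Tnf (chr17:35202008-35202257, minus strand) and Il18 (chr9:50554450-50554699, plus strand). Capitals mark letters that match the kB motif, bound by NF-kB (read as 3 G, any 5 bases and 2 C), or the AP-1 motif TGANTCA, on either strand.
Il6: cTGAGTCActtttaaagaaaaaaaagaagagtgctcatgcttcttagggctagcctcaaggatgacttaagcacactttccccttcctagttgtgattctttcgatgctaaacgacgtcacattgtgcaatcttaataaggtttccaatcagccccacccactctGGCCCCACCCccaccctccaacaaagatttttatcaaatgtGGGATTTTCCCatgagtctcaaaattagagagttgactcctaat
Tnf: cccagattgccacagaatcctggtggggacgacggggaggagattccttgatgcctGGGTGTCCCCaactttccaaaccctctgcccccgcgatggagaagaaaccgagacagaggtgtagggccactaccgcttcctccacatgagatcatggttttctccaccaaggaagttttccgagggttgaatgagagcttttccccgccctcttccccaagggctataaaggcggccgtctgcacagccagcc
Il18: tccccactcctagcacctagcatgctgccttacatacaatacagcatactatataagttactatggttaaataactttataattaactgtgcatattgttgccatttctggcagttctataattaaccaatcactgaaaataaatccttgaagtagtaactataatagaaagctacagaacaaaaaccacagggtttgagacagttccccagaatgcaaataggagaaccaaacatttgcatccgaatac
Il6 held 3 kB matches, at -85 to -76, -44 to -35 and -43 to -34 from the start site, of which the last 2 overlap, and 1 AP-1 match at -249 to -243. Tnf held 1 kB match at -194 to -185. Il18 held neither motif, and its RefSeq start lies ahead of the gene start that the deposited table gives. Whether motif matches go with the cell type difference was not tested. Il1b and Il12b, found mainly in macrophage libraries, held neither motif, as Il18 did. Il1rn, called higher in macrophages and also present in epithelial cells, held both. Il1a held 1 AP-1 match and no kB match. Of the 7 members with entries, 3 held a kB match and 3 an AP-1 match in at least 1 entry. That count is per member, whereas the shares that follow are per window. Of 32851 RefSeq promoter windows of this length, 45.8% held the kB letters and 6.75% the AP-1 letters, so a kB match is common. The E-box CACGTG was in no member window and in 6.02% of all windows. Such matches describe letters and not binding.

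**Figure D1:**
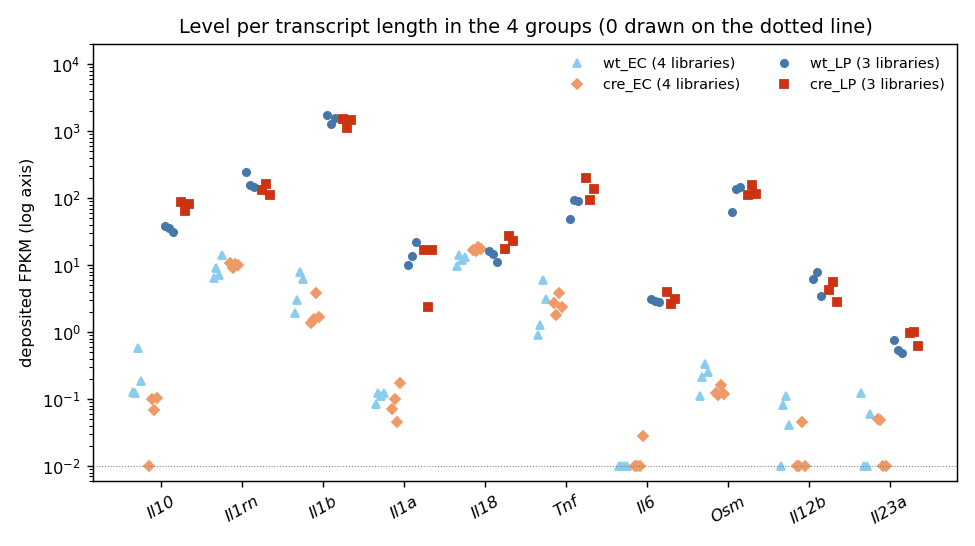
Deposited FPKM (counts scaled to gene length and library size, log axis) of the 10 transcripts in every library of the 4 groups, with values of 0 drawn on the dotted line. Il18 lies between 9.83 and 27.3 FPKM in all 14 libraries, whereas the other transcripts sit far lower in epithelial cells (EC) than in macrophages (LP).

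Levels of different genes can be compared per length, on the deposited FPKM. In wt macrophages Il1b came first at 1535 ± 227 FPKM (SD, n = 3), followed by Il1rn at 183 ± 54.8, Osm at 114 ± 45.3 and Tnf at 77.9 ± 25.3 FPKM. Il10 came next at 34.9 ± 3.78 FPKM (SD, n = 3). Il1a at 15.2 ± 6.17, Il18 at 14.1 ± 2.84, Il12b at 5.86 ± 2.28, Il6 at 2.95 ± 0.168 and Il23a at 0.598 ± 0.151 FPKM followed. Neighbours in that order overlapped between libraries for Il1rn and Osm, Osm and Tnf, and Il1a and Il18, and the others did not overlap. In cre macrophages Il1b was again first at 1354 ± 224 FPKM (SD, n = 3). Tnf, Il1rn and Osm overlapped at 143 ± 54.0, 135 ± 24.7 and 129 ± 26.5 FPKM, and Il10 stood below them at 78.0 ± 12.2 FPKM. The highest cre library had 87.2 FPKM of Il10 and the lowest 93.2 FPKM of Tnf. Il18 at 22.6 ± 5.09, Il1a at 12.0 ± 8.37, Il12b at 4.19 ± 1.36, Il6 at 3.20 ± 0.668 and Il23a at 0.865 ± 0.220 FPKM (SD, n = 3) followed, with overlap of Il1a with Il12b and of Il12b with Il6.

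Il10 rose in cre macrophages, and it was the only member that passed the test. Il10 (ENSMUSG00000016529, chromosome 1, 131019845 to 131024974, plus strand, GRCm38, protein coding) had 529, 377 and 369 counts in wt libraries 2, 4 and 6 and 863, 611 and 1040 counts in cre libraries 10, 8 and 9. As CPM these were 54.2, 49.9 and 43.7 in wt and 123, 92.7 and 116 in cre. The groups did not overlap, and the lowest cre library lay well above the highest wt one. The group means were 49.3 ± 5.25 CPM for wt and 110.4 ± 15.7 CPM for cre (3 libraries each, SD). Il10 rose 2.24-fold, a log2 fold change of 1.16 (SE 0.17, adjusted p = 0.0220 by edgeR), and ranked 44th of 14087 genes by p. In bulk libraries more cells that make a transcript and more of it per cell cannot be told apart.

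The log2 fold change of Il10 lay between 1.08 and 1.34 in the 17 alternatives that refit the comparison. Its call held in 8 of them and was lost in 9. Scaled to macrophage markers, an alternative described with those markers, it was 0.62. Since all cre macrophage libraries were male, sex and genotype overlap. With sex in the model the log2 fold change was 1.34 and did not pass (adjusted p = 0.240 by edgeR). In males alone, with 1 wt library, the log2 fold change was 1.34. With 1 library left out the adjusted p was 0.0277 without cre 8, and the call was lost without cre 10 (0.149), cre 9 (0.0597), wt 2 (0.0511), wt 4 (0.106) or wt 6 (0.0735). DESeq2 gave an adjusted p of 1.37e-06.

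**Figure D2:**
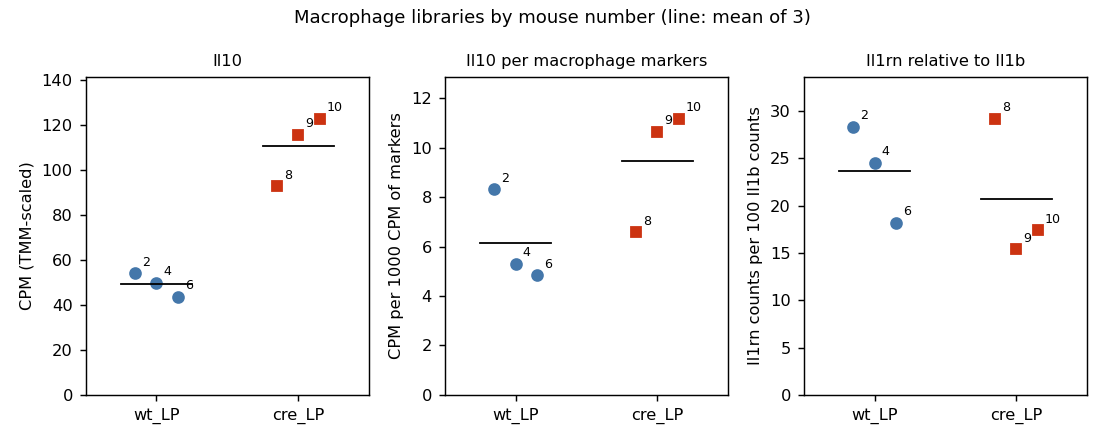
Macrophage libraries by the number in their title: Il10 in CPM, Il10 per 1000 CPM of summed macrophage markers, and Il1rn counts per 100 Il1b counts, each axis from 0, with lines at the mean of 3 libraries. Il10 CPM separates the genotypes (43.7 to 54.2 against 92.7 to 123), whereas the other quantities overlap.

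The summed level of macrophage markers was also higher in every cre library. That sum over 11 resident gut macrophage genes was 6510 to 9390 CPM in wt and 10863 to 14084 CPM in cre, with 9 of 11 positive log2 fold changes, of which that of Cd68, a lysosomal glycoprotein, passed (1.31, SE 0.19, adjusted p = 0.0220 by edgeR). Per 1000 CPM of these markers Il10 stood at 8.32, 5.31 and 4.85 CPM in wt libraries 2, 4 and 6 and at 11.2, 6.58 and 10.7 CPM in cre libraries 10, 8 and 9. On that scale the groups overlapped, with a log2 difference of 0.62 (exact two-sided permutation p = 0.2, where 3 against 3 libraries allow no less than 0.1). Other cells that can make interleukin 10 were also counted. The 11 T and innate lymphoid markers summed to 83.9 to 104 CPM in wt and 69.8 to 125 CPM in cre. Il7r made up most of that sum, with means of 71.9 CPM in wt and 88.6 CPM in cre. Of the 6 markers of this list that were tested, 5 had a negative and 1 a positive log2 fold change (median -1.82), and none passed. The 9 B and plasma cell markers summed to 1494 to 6550 CPM in wt and 3290 to 4793 CPM in cre. The 9 dendritic cell markers summed to 1098 to 1997 CPM in wt and 709 to 848 CPM in cre, all 9 with a negative log2 fold change, of which that of Itgae, an integrin, passed (-2.09, SE 0.28, adjusted p = 0.0165). Monocyte markers (7 genes) summed to 886 to 1078 and 508 to 753 CPM, of which Plac8 passed (log2 fold change -1.17, adjusted p = 0.0301), and fibroblast and muscle markers (10 genes) to 2872 to 4826 and 854 to 2525 CPM. No marker of these 5 lists was at 0 in all cre libraries, and in wt only Pax5 was. The 8 neutrophil markers summed to 38.0 to 69.0 CPM in wt and 48.3 to 79.4 CPM in cre, with Cxcr2, Camp and Ngp at 0 in both groups and S100a8 and S100a9 at 0 in wt. The 8 mast cell and eosinophil markers summed to 71.6 to 98.7 and 35.4 to 56.1 CPM, with Mcpt4 and Tpsb2 at 0 in wt. The 10 epithelial markers summed to 57.3 to 381 and 89.6 to 209.5 CPM. The part of these cells in the Il10 difference was not tested. Mitochondrial genes took 4.51 to 6.45% of counts in wt and 5.997 to 9.83% in cre, and the largest ribosomal RNA gene 19.5 to 20.6% and 19.1 to 26.4%. With the ribosomal share in the model the Il10 log2 fold change was 1.19 (adjusted p = 0.217 by edgeR), which did not pass.

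**Figure D3:**
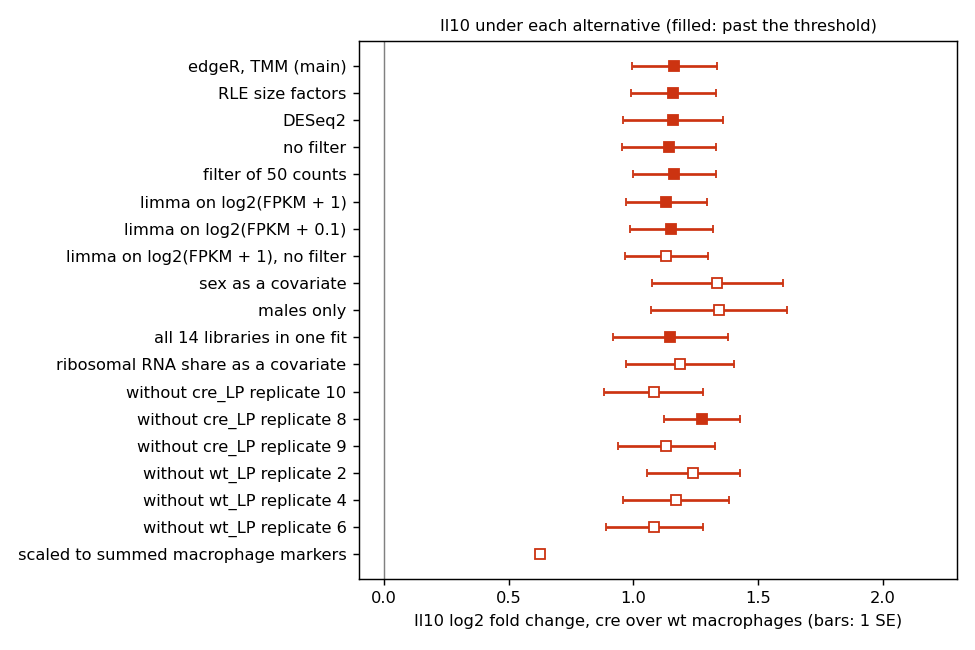
Log2 fold change of Il10, cre over wt macrophages, with 1 SE, in the edgeR fit with TMM and under each alternative. All points lie above 0, and filled points are those past the adjusted p threshold of 0.05. The last point, scaled to macrophage markers, has no SE and no adjusted p. It is drawn open because its exact permutation p cannot go below 0.1.

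The genes whose CPM most resembled Il10 over the 6 macrophage libraries, among 9990 others with a mean of at least 5 CPM, were Cd200r1 (Pearson r 0.998 of log2(CPM + 1)), Atp6v1b2 (0.996), Galk2 (0.988), Rc3h1 (0.987) and Tnfrsf1b (0.984). These values describe 6 libraries that divide by genotype. Cd200r1, an inhibitory receptor of myeloid cells, rose from 19.98 to 40.4 CPM (log2 fold change 1.01, SE 0.19, adjusted p = 0.0449 by edgeR). Galk2, a galactose kinase family member, rose by 0.86 (log2, SE 0.15, adjusted p = 0.0411). Atp6v1b2, a subunit of the lysosomal proton pump (0.70, adjusted p = 0.0633), Rc3h1, which encodes the RNA decay factor roquin (0.56, adjusted p = 0.247), and Tnfrsf1b, a TNF receptor (0.34, adjusted p = 0.352), had log2 fold changes that did not pass.

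Among the inflammatory ligands no member passed in macrophages, nor did the antagonist Il1rn, and the changes pointed both ways. Of the 8 members tested there besides Il10, 4 had a positive and 4 a negative log2 fold change, and 2, Tnf and Il18, had an unadjusted p under 0.05. With Il10, 5 of 9 were positive, the median was 0.12 against 0.00 over all genes, and 3 had an unadjusted p under 0.05. Il10, Tnf and Il18 had groups that did not overlap, all higher in cre, which is 3 of 9, where 19.9% of all genes tested did not overlap (10.3% higher and 9.6% lower). An unadjusted p under 0.05 was found for 12.8% of all genes.

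**Figure D4:**
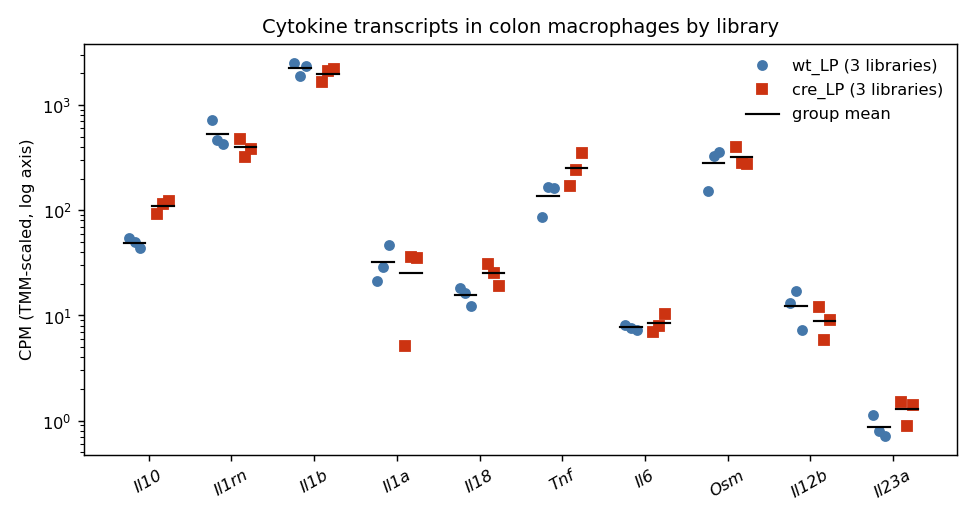
CPM (TMM-scaled, log axis) of the 10 transcripts in 3 wt_LP and 3 cre_LP macrophage libraries, with black lines at group means. Il10 separates clearly between genotypes, while Tnf and Il18 are apart by narrow gaps (166 against 169 CPM, and 18.3 against 19.1 CPM).

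Tnf (ENSMUSG00000024401, chromosome 17, 35199381 to 35202007, minus strand) encodes the membrane-bound and shed cytokine TNF. It stood at 86.1, 166 and 161 CPM in wt libraries 2, 4 and 6 and at 354, 169 and 240 CPM in cre libraries 10, 8 and 9. The lowest cre library barely exceeded the highest wt library, and cre 10 was highest. Tnf had a log2 fold change of 0.88 (SE 0.32, adjusted p = 0.291 by edgeR), which did not pass. Fitted with sex, it was 0.65 (adjusted p = 0.789).

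Il18 (ENSMUSG00000039217, chromosome 9, 50554827 to 50581840, plus strand) stood at 18.3, 16.4 and 12.2 CPM in wt macrophages 2, 4 and 6 and at 19.1, 31.1 and 25.6 CPM in cre macrophages 10, 8 and 9. Its log2 fold change of 0.69 (SE 0.25, adjusted p = 0.294 by edgeR) did not pass. In epithelial cells Il18 was 14.9, 21.8, 18.3 and 19.8 CPM in wt libraries 2, 4, 6 and 7 and 24.7, 24.1, 27.0 and 25.6 CPM in cre libraries 10, 5, 8 and 9. There too the groups did not overlap, as in 16.6% of 13553 genes tested (9.92% higher and 6.68% lower), and the log2 fold change of 0.44 (SE 0.15, adjusted p = 0.0737 by edgeR) did not pass. The main edgeR fit called Il18 in neither cell type. Title numbers 8, 9 and 10 gave cre libraries of both cell types, so these libraries are not separate sets of replicates. The share of all genes whose groups separate in both cell types was not computed. The genotype effects on Il18 differed between cell types by 0.22 (log2, SE 0.28, adjusted p = 0.764 by edgeR). Of 19 alternatives 3 called the epithelial difference. Among them were the limma fit on log2(FPKM + 1) (0.46, adjusted p = 0.0299) and DESeq2 (adjusted p = 0.0357).

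The interleukin 1 genes lie on chromosome 2: Il1b (ENSMUSG00000027398, 129364570 to 129371139, minus strand), Il1a (ENSMUSG00000027399, 129299610 to 129309972, minus strand) and Il1rn (ENSMUSG00000026981, 24336853 to 24351494, plus strand). Il1b stood at 2527, 1880 and 2329 CPM in wt libraries 2, 4 and 6 and at 2212, 1645 and 2098 CPM in cre libraries 10, 8 and 9. The ranges overlapped over most of their width (log2 fold change -0.18, SE 0.18, adjusted p = 0.763 by edgeR). Il1rn stood at 716, 461 and 424 CPM in wt and at 385, 480 and 323 CPM in cre, with wt 2 highest. Its log2 fold change of -0.43 (SE 0.23, adjusted p = 0.492 by edgeR) did not pass and came to -0.10 with sex in the model. Il1a, whose product acts from the cell surface or on cell death, stood at 21.4, 28.7 and 47.0 CPM in wt and at 35.4, 5.16 and 35.9 CPM in cre. Cre 8 was the lowest of the 6 by a wide margin. For Il1a it came to -0.34 (log2, SE 0.68, adjusted p = 0.896 by edgeR), and 0.14 without cre 8 and 0.03 without wt 6. Annotated transcripts on the opposite strand share exon bases with Il1a (Gm14023) and Il1b (Il1bos), and these libraries keep no strand, so their reads cannot be told apart.

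The balance of antagonist to agonist was read within libraries. For 100 Il1b counts there were 28.3, 24.5 and 18.2 Il1rn counts in wt libraries 2, 4 and 6 and 17.4, 29.2 and 15.4 in cre libraries 10, 8 and 9. The groups overlapped fully, and the log2 ratio differed by -0.23 between cre and wt (exact two-sided permutation p = 0.6, smallest possible 0.1). In the male libraries alone the difference was 0.13.

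Osm (ENSMUSG00000058755, chromosome 11, 4236420 to 4241026, plus strand) stood at 152, 331 and 357 CPM in wt libraries 2, 4 and 6 and at 273, 400 and 280 CPM in cre libraries 10, 8 and 9. Its log2 fold change of 0.18 (SE 0.31, adjusted p = 0.871 by edgeR) turned to -0.11 without wt 2, -0.02 without cre 8 and -0.17 once sex was fitted. Il6 (ENSMUSG00000025746, chromosome 5, 30013114 to 30019981, plus strand) stood at 8.19, 7.67 and 7.35 CPM in wt and at 10.2, 6.98 and 8.01 CPM in cre. The cre values lay on both sides of the wt ones, with a log2 fold change of 0.12 (SE 0.27, adjusted p = 0.910 by edgeR) that was -0.04 without cre 10. Il12b (ENSMUSG00000004296, chromosome 11, 44400063 to 44414033, plus strand) encodes the subunit shared by interleukins 12 and 23. It stood at 13, 16.9 and 7.35 CPM in wt and at 8.97, 12.0 and 5.90 CPM in cre. The log2 fold change of -0.48 (SE 0.38, adjusted p = 0.681 by edgeR) was 0.28 once sex was fitted and 0.29 among males. Il23a (ENSMUSG00000025383, chromosome 10, 128296139 to 128298752, minus strand), the subunit particular to interleukin 23, had 11, 6 and 6 counts in wt and 10, 10 and 8 in cre macrophages. That was too few for the filter on low counts, so it was not tested for genotype.

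**Figure D5:**
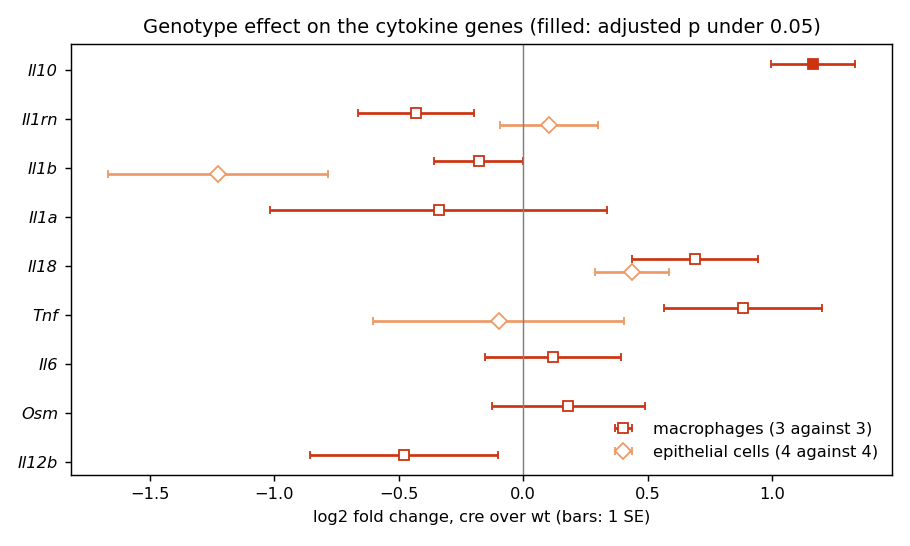
Log2 fold change, cre over wt, with 1 SE for the 9 members tested in macrophages and the 4 tested in epithelial cells. Filled symbols passed an adjusted p of 0.05, and Il10 in macrophages at 1.16 is the only one.

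In epithelial cells 4 of 10 members passed the low count filter, and edgeR called none of them, where 9.17% of 13553 genes were called (5.64% higher and 3.53% lower in cre). Leaving out cre library 9, 5, 10 or 8 moved that total of 1243 genes to 178, 318, 548 or 1947, leaving out wt 2 moved it to 682, and males alone gave 5. At an unadjusted p under 0.05 there were 2 members, Il1b and Il18, as for 27.3% of all genes, and DESeq2 called both. Il1b in epithelial libraries was 3.81, 5.99, 15.8 and 12.3 CPM in wt 2, 4, 6 and 7 and 2.70, 3.01, 7.30 and 3.27 CPM in cre 10, 5, 8 and 9. The log2 fold change came to -1.23 (SE 0.44, adjusted p = 0.0958 by edgeR). Of 18 alternatives 5 called Il1b. Among them were the edgeR fits with sex in the model (-1.37, adjusted p = 0.0225), without cre 8 (-1.64, adjusted p = 0.0259) and without wt 2 (-1.49, adjusted p = 0.0445). With the ribosomal RNA share in the model the log2 fold change was -0.38 (adjusted p = 0.687 by edgeR). The macrophage markers in these libraries summed to 59.1, 45.5, 100 and 85.2 CPM in wt 2, 4, 6 and 7 and to 36.9, 29.6, 66.9 and 37.3 CPM in cre 10, 5, 8 and 9. Wt 6, wt 7 and cre 8 were the 3 highest for both measures, and the part of macrophage RNA in the Il1b difference was not tested.

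Il1rn, which epithelium also makes, stood between 25.3 and 54.6 CPM in wt and between 35.0 and 42.1 CPM in cre epithelial libraries (log2 fold change 0.10, SE 0.20, adjusted p = 0.770 by edgeR). Tnf lay between 2.21 and 14.7 CPM in wt and between 4.24 and 8.97 CPM in cre epithelial libraries (log2 fold change -0.10, SE 0.50, adjusted p = 0.924 by edgeR). Il10 had 2, 2, 7 and 3 counts in wt epithelial libraries 2, 4, 6 and 7 and 0, 2, 1 and 2 counts in cre 10, 5, 8 and 9, too few to test there. Osm (3 to 7 counts), Il1a (1 to 5), Il12b (0 to 2) and Il23a (0 to 2) were near the limit of detection in every epithelial library.

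The difference of genotype effects between macrophages and epithelial cells was not called for any member by edgeR, where 0.702% of 16375 genes were called (0.47% more positive and 0.232% more negative in macrophages). Only Il10 had an unadjusted p under 0.05 among the 10, as for 15.3% of all genes, with a log2 difference of 2.83 (SE 0.68, adjusted p = 0.0685 by edgeR), and DESeq2 called it (adjusted p = 0.0139). This value rests on 19 epithelial counts of Il10 in 8 libraries.

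Partners of these cytokines were read from 9 lists of receptors, regulators and processing enzymes. Of 106 genes tested in macrophages, edgeR called none, 19 had an unadjusted p under 0.05 and DESeq2 called 5, which were Ier3, Il18bp, Il1r2, Prdm1 and Zfp36l1. Over all 14087 genes 0.944% were called by edgeR and 12.8% had an unadjusted p under 0.05, and DESeq2 called 517 genes in all. The median log2 fold change of the 106 partners was 0.01, against 0.00 over all genes. The 11 genes of the interleukin 10 receptor and its signalling were split 5 positive and 6 negative, with a median log2 fold change of -0.01. Il10rb, the shared receptor chain, had a log2 fold change of 0.29 (adjusted p = 0.424) and Stat3, the signal transducer, -0.28 (adjusted p = 0.579). Of 10 transcription factors that act on Il10, 5 had a positive and 5 a negative change. Prdm1, which encodes BLIMP1, went from 24.8 ± 6.76 to 57.9 ± 11.9 CPM as mean ± SD of 3 libraries (log2 fold change 1.22 ± 0.25 SE, adjusted p = 0.0677 by edgeR) and did not pass, and Irf4 had -0.70 (adjusted p = 0.204).

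In the interleukin 1 family, 5 of 13 partners had a positive and 8 a negative change. Il18bp, the soluble inhibitor of interleukin 18, went from 6.47 ± 2.24 to 18.0 ± 0.653 CPM as mean ± SD of 3 libraries (log2 fold change 1.47 ± 0.30 SE, adjusted p = 0.0700 by edgeR), and Il1r2, the decoy receptor of interleukin 1, from 271 ± 28.1 to 158 ± 51.1 CPM (-0.78, SE 0.22, adjusted p = 0.175). Neither passed. Of 14 inflammasome genes 7 were positive and 7 negative, and Nlrp1a (0.78, adjusted p = 0.402) and Casp1, the protease that matures interleukin 1 beta and 18 (0.56, adjusted p = 0.412), had the smallest p. In the interleukin 6 family 7 of 8 partners had a negative change, with a median of -0.31 against 0.00 over all genes. None passed, with Il11ra1 at -0.58 (adjusted p = 0.248) and Lifr at -0.70 (adjusted p = 0.443). In the same libraries 8 of 10 fibroblast and muscle markers were negative, and the part of such cells here was not tested. Of 11 TNF partners 7 were positive, with Ltb, a lymphotoxin subunit, at -1.67 (adjusted p = 0.253) and Ripk1, a kinase of the TNF receptor complex, at 0.48 (adjusted p = 0.344). Of 6 interleukin 12 and 23 partners 5 were positive, with Il12rb2 at 1.14 (adjusted p = 0.236) and Stat4 at 0.44 (adjusted p = 0.543).

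Of 19 genes of NF-kB and its feedback 9 were positive and 10 negative in macrophages. Zfp36l1, an RNA-binding protein that destabilises AU-rich transcripts, had a log2 fold change of 0.52 (adjusted p = 0.135), and Cyld, a deubiquitinase that limits NF-kB, -0.85 (adjusted p = 0.215). Of 20 immediate early genes, which tissue dissociation can induce, 15 were positive with a median of 0.11, and Ier3 (0.75, adjusted p = 0.131) and Klf2 (0.66, adjusted p = 0.219) had the smallest p. In epithelial cells 9 of 85 partner genes passed, 1 higher and 8 lower in cre. Nfkb2, an NF-kB subunit, rose by 0.56 (log2, adjusted p = 0.0144 by edgeR), and Jak1 (-0.83), Il1rap (-1.25), Naip5 (-0.85), Nek7 (-0.75), Dusp2 (-1.53), Cyld (-0.85), Fosb (-0.82) and Bhlhe40 (-0.82) fell. Over all epithelial genes 9.17% were called, 5.64% higher and 3.53% lower. Dusp2 was low in epithelial libraries (means of 2.89 CPM in wt and 0.993 CPM in cre), as was Il1rap (4.48 and 1.87 CPM). Jak1 stood higher (47.0 and 26.5 CPM). The macrophage markers in these libraries had a mean sum of 72.5 CPM in wt and 42.7 CPM in cre. The part of macrophage RNA in these calls was not tested. The median log2 fold change of the 85 partners was -0.20, against -0.05 over all genes.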

How the data were processed

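The authors deposited 2 tables, whole-number counts per gene and FPKM, with 1 column for each of 14 libraries. The labels' protocols name Smart-seq2 and Nextera XT, which keep no strand. The submitters' processing notes list GRCm38, Picard 2.19.2, STAR 2.5.2b and DESeq2 1.24.0. Read counter, annotation release and strand setting: not given in the sources used here.

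edgeR 4.0.16 (R 4.3.3) was run on the counts with TMM scaling and filterByExpr (minimum count 10). Its robust quasi-likelihood test was adjusted by Benjamini-Hochberg over all genes tested. Genotype was fitted within a cell type. The cell type difference, called also only from an absolute log2 fold change of 1, and the difference of genotype effects used 14 libraries in 4 groups. SE is the absolute log2 fold change over the root of F. The scripts were tested on simulated data. The labels number 4 wt mice and the series text counts 3, so some wt libraries may share an animal, and p-values measure the spread between libraries. No library was a copy of another in its group (smallest chi-square per degree of freedom 6.20).

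The members and lists were chosen with earlier results of these data known. Named besides the members were Tsc2, up to 4 called genes of each partner list in macrophages or else the 2 with the smallest p, and the 5 genes most like Il10. Partners called in epithelial cells or by DESeq2 and the markers called were named after their values were seen. Of the partner symbols, 5 had no match (Il36a, Il36b, Il36g, Il36rn and Il37). Alternatives: RLE scaling, DESeq2 1.42.0, no filter or one of 50 counts, limma 3.58.1 on log2(FPKM + 1) where mean FPKM was at least 1, unfiltered, or with 0.1 added, sex or the ribosomal RNA share as a covariate, males alone, 1 fit of 14 libraries, a block on the title number and omission of each library. Scaling Il10 to macrophage markers was chosen after seeing the data. Ratios of Il1rn to Il1b had 0.5 added to each count. The floor given where no count was seen covers counting error only.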

Additional observations from a re-analysis of the deposited data

Results flagged for a closer look

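Among 27 values checked in the epithelial groups of 4 libraries, 6 had 1 library far from the other 3. Chance gives about 1 in 20 for independent, continuous values. That rate does not apply to Il12b and Il6 below, where 1 count stood against 0 in the other 3, and 4 of the 6 values come from cre epithelial library 8. Il10 stood at 1.12 CPM in wt epithelial library 6, against 0.239 to 0.354 CPM in the other 3, that is, 7 counts against 2 or 3. Il1b stood at 7.30 CPM in cre epithelial library 8, against 2.70 to 3.27 CPM. The same library had 0.128 CPM of Il12b, which is 1 count where the others had 0, the ribosomal RNA gene at 26.7% of its counts, against 7.37 to 10.6%, and 20032 genes detected, against 20830 to 20888. Il6 stood at 0.0961 CPM in cre epithelial library 9, again 1 count where the others had 0.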

How the results depend on the processing

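In macrophages the 133 calls became 517 with DESeq2, 299 with no filter, 374 in 1 fit of all libraries, 47 with log2(FPKM + 1) and no filter, 32 in males only, 18 with the ribosomal RNA share and 2 with sex as covariates, and 29 to 87 with 1 library left out. Il10 remained positive throughout. Its call was lost, leaving 0 members called, with log2(FPKM + 1) and no filter (1.13), the ribosomal share (1.19), sex (1.34) and males only (1.34), and 0 to 1 members were called with 1 library left out (Il10 1.08 to 1.28). Scaled to macrophage markers, an alternative chosen after seeing the data, Il10 had 0.62. Other signs turned: Il12b to 0.28 with sex and 0.29 in males, Osm to -0.17 with sex, -0.16 in males, and to -0.02 and -0.11 without cre 8 or wt 2, Il6 to -0.044 without cre 10, and Il1a to 0.14 without cre 8 and 0.03 without wt 6. With 1 library left out Il1a lay between -0.67 and 0.14, Osm between -0.11 and 0.40, and Il6 between -0.044 and 0.24. The Il1rn to Il1b ratio turned to 0.13 in males and lay between -0.51 and -0.05 with 1 library left out.

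In epithelial cells the 1243 calls became 1967 with DESeq2, 19 in 1 fit of all libraries, 5 in males only, 3 with the ribosomal share, 0 with log2(FPKM + 1) and no filter, and 178 to 1947 with 1 library left out. Members called were 2 with DESeq2, 1 each with no filter, with log2(FPKM + 1), with log2(FPKM + 0.1) and with sex, and 0 to 1 with 1 library left out. Tnf turned to 0.11 with log2(FPKM + 1), filtered or not, 0.24 with log2(FPKM + 0.1), 0.92 with the ribosomal share, 0.05 without cre 5 and 0.56 without wt 6. Il1rn turned to -0.056 in males and -0.032 without wt 2. With 1 library left out Tnf lay between -0.39 and 0.56 and Il1rn between -0.032 and 0.38.

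The cell type difference had 4994 calls with log2(FPKM + 1) and 5536 with no filter on it, and Il18 turned to -0.080 in males. The difference of genotype effects had 535 calls with DESeq2, 297 with log2(FPKM + 1), 195 with no filter, 183 with unfiltered FPKM, 18 in males only and 54 to 229 with 1 library left out. Each of the first 4 called 1 member, Il10. There Il6 turned to 0.068 with log2(FPKM + 1), filtered or not, 0.0077 with log2(FPKM + 0.1) and 0.11 without cre epithelial library 9, Il12b to -0.31 with log2(FPKM + 1), filtered or not, and Il1a to 0.21, 0.26 and 0.18 without cre epithelial library 9, cre macrophage library 8 or wt macrophage library 6. With 1 library left out Il6 lay between -1.57 and 0.11 and Il1a between -0.52 and 0.26. The cause of these shifts was not tested.

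Macrophage and epithelial libraries of a genotype share title numbers. Same-numbered libraries correlated in their deviations from group means at -0.06 to 0.09, and 3 of 6 correlated best with their own number. These were wt 2, 4 and 6 (0.06, 0.03 and 0.09), whereas cre 10, 8 and 9 did not (-0.01, -0.06 and -0.03). With a replicate block the cell type difference had 8416 calls, the difference of genotype effects 8, and 9 and 0 members were called. No paired analysis was possible for genotype within a cell type because those groups share no number. With 3 libraries a group, an exact permutation test cannot go below 0.1, and Il10, Il1a, Il6, Il12b, Il23a and Osm had too few epithelial counts for a test of genotype.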
